A study of Arabidopsis thaliana with 32 samples.

Results

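The response of the transcriptome to warmth was compared between 2 genotypes of *Arabidopsis thaliana*, the wild-type accession Col-0 and a line labelled *med14-2*. The comparison is a genotype-by-temperature interaction, the log2 change from 20°C to 27°C in *med14-2* minus the log2 change from 20°C to 27°C in Col-0, and it was taken over all genes of the deposited table of FPKM, which scales the fragments of a gene to its exon length and to the mapped fragments of the library. It used 16 of the 32 libraries of the series, 4 biological replicates of each genotype at each temperature, and 19571 of 27655 genes passed the filter on low values. Every library came from whole seedlings grown for 96 h under constant red (R) light at a fluence rate of 50 µmol photons per square metre each second, with the temperature held at 20°C or at 27°C for the entire period, so "response" is the difference between seedlings that grew warm and seedlings that grew cool. The sample labels call the line *med14-2* and the text of the series calls it *med14*. They were taken as the same line, which the study's methods give as the T-DNA insertion SAIL_373_C07 in the Col-0 background, 1 insertion line with no second allele among these libraries. All seedlings shared the R light and the plate medium, and no temperature shift was sampled.

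Warmth lengthens the hypocotyl and petioles of light-grown *Arabidopsis*, a response called thermomorphogenesis. The bHLH transcription factor PIF4 accumulates in warm seedlings and activates genes of auxin synthesis and auxin response, with HEMERA (HMR) as a co-activator, while the photoreceptor phytochrome B restrains PIF4 in R light. Mediator is the multi-subunit complex that links DNA-bound factors to RNA polymerase II. In the structure of yeast Mediator, MED14 is a backbone that joins the other modules of the complex. The study states that this is not settled for the *Arabidopsis* protein. PIFs bind the G-box CACGTG and the related PBE-box CACATG.

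*MED14* transcript (AT3G04740) was present in every library. After scaling, its level was 6.89, 7.58, 6.36 and 6.09 FPKM in Col-0 at 20°C and 6.77, 7.05, 6.88 and 7.99 FPKM at 27°C (replicates 1 to 4 in each list here and below). In the line labelled *med14-2* it was 11, 11.2, 11.98 and 11.4 FPKM at 20°C and 7.84, 9.17, 9.15 and 8.30 FPKM at 27°C. The *med14-2* libraries were above every Col-0 library at 20°C and overlapped with Col-0 at 27°C, and the gap on the log2 scale was 0.74 ± 0.09 (difference ± SE, adjusted p = 8.6e-06) and 0.26 ± 0.09 (adjusted p = 0.036). The transcript therefore does not show a loss of *MED14* RNA. The study, citing earlier work, describes its *med14* line as strongly reduced in *MED14* expression. It also reports that a *MED14* transgene largely restored the growth response. FPKM over the whole gene does not tell a full-length transcript from a partial one. The site of the insertion in the gene is not given in the sources used here, and the libraries are called by their label, *med14-2*, throughout. All directions below are between libraries so labelled. The response of *MED14* itself was 0.09 in Col-0 and -0.40 in *med14-2*, a difference of -0.49 ± 0.12 (adjusted p = 0.012), and this call was lost without scaling, with all 32 libraries in the fit, and with replicates 1 and 2 or replicates 3 and 4 alone.

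Depth recovered from the FPKM values was 11911240 to 16883322 mapped fragments per library. The share of fragments in the listed nuclear genes was 68.0 to 82.8% in Col-0 at 20°C, 91.9 to 93.0% in Col-0 at 27°C, 79.0 to 87.1% in *med14-2* at 20°C, and 55.9 to 95.8% in *med14-2* at 27°C, where replicate 1 was the low value and the other 3 were 91.5% or more. Plastid genes took 0.143 to 3.98% of FPKM in the *med14-2* libraries at 27°C and 1.01 to 5.34% in the Col-0 libraries. FPKM values were divided by a scaling factor per library (0.780 to 1.29), and all levels below are these scaled FPKM. Differences and responses are on the scale log2(scaled FPKM + 0.25), which understates changes of genes near or below 0.25 FPKM. Adjusted p is limma's moderated test with Benjamini-Hochberg adjustment over all 19571 genes, and a gene was called at an adjusted p under 0.05. In whole seedlings, fewer cells of a type and less RNA per cell cannot be told apart.

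The response to warmth was lower in *med14-2* than in Col-0 for 1739 genes (8.89% of those tested) and higher for 1254 genes (6.41%). Among the 1739, the median response was 0.45 in Col-0 and -0.48 in *med14-2*. Of them, 1093 (62.9%) had a positive response in Col-0 and a negative one in *med14-2*, against 14.7% of all tested genes. The contrast itself picks out genes with opposite responses. Among the 1254, the median response was -0.48 in Col-0 and 0.26 in *med14-2*. Of these, 549 (43.8%) had a negative response in Col-0 and a positive one in *med14-2*, against 11.8% of all tested genes. The difference was at least 2-fold for 795 of the lower and 474 of the higher genes, and at least 4-fold for 204 and 73. The gap between the genotypes was not confined to the warm seedlings. For 821 of the lower genes (47.2%) the genotypes were further apart at 20°C than at 27°C, and so were they for 519 of the higher genes (41.4%). Over all tested genes this share was 52.7%, so it was no higher among the called genes. The balance of directions depended on the scaling of the libraries. With no scaling, 1315 genes were lower and 380 higher, so that the higher genes made up 22.4% of calls instead of 41.9%, and the median difference of all genes moved from 0.01 to -0.14. In the lists below with no call in 1 direction, at most 1 member passed an unadjusted p under 0.05 in that direction by the same test. Among the called genes, 34 of the lower and 40 of the higher reached 0.5 FPKM in the libraries of 1 group alone, so they passed the filter only where they were high and had to differ between groups. In the lists these were *IAA34*, *SAUR10*, *PRE5*, *GPAT7*, *KIN1*, and *PBS3*. The plot of gene lists sets each list's counts beside these shares.

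Genes assayed by RT-qPCR in these or related lines formed a list of 12, of which 8 had a lower and 2 a higher response in *med14-2*. *PIF4* (AT2G43010) was at 10.8, 10.3, 8.35 and 5.95 FPKM in Col-0 at 20°C and rose to 20.6, 17.5, 21.1 and 21.97 FPKM at 27°C, whereas it was at 8.35, 9.96, 9.71 and 7.60 FPKM in *med14-2* at 20°C and 9.47, 9.70, 9.56 and 9.41 FPKM at 27°C. All 4 warm Col-0 libraries were above each of the other 12. The response was 1.21 ± 0.14 in Col-0 and 0.10 ± 0.14 in *med14-2*, a difference of -1.102 ± 0.20 (adjusted p = 9.6e-04). *YUC8* (AT4G28720), a flavin monooxygenase of the last step of auxin synthesis, was at 2.21 ± 0.453 FPKM in Col-0 at 20°C and 3.97 ± 0.495 FPKM at 27°C (mean ± SD, n = 4). In *med14-2* it went the other way, from 1.503 ± 0.174 to 0.720 ± 0.404 FPKM, with a difference in response of -1.74 ± 0.33 (adjusted p = 0.0014).

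The early auxin response gene *IAA19* (AT3G15540) was at 5.29, 5.30, 5.10 and 4.93 FPKM in Col-0 at 20°C and 14.5, 16.7, 21.05 and 18.5 FPKM at 27°C. In *med14-2* it was at 3.25, 4.08, 4.34 and 4.84 and 3.27, 5.28, 5.88 and 4.60 FPKM, and the ranges at the 2 temperatures overlapped. The difference in response was -1.54 ± 0.22 (adjusted p = 9.0e-05), almost all of it from the warm seedlings. *IAA29* (AT4G32280), another Aux/IAA repressor, showed 1.68 in Col-0 and 0.03 in *med14-2* (difference -1.65 ± 0.37, adjusted p = 0.005), and it was not called with all 32 libraries in the fit.

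*ST2A* (AT5G07010), a sulfotransferase that inactivates hydroxyjasmonate, had the largest difference of these 12 genes. It rose from 0.760 ± 0.237 to 8.08 ± 3.401 FPKM in Col-0 and was at 1.43 ± 0.381 and 1.17 ± 0.101 FPKM in *med14-2*, a difference of -3.20 ± 0.34 (adjusted p = 5.5e-06). *ARGOS* (AT3G59900), which promotes organ growth downstream of auxin, responded by 1.88 in Col-0 and -0.41 in *med14-2* (difference -2.29 ± 0.29). *APD7* (AT5G02760), a clade D protein phosphatase 2C, responded by 1.59 and -0.49 (difference -2.08 ± 0.25). The genotypes were already apart at 20°C in opposite directions for these genes, with *ST2A* and *ARGOS* higher in *med14-2* by 0.73 and 0.80 and *APD7* lower, at -0.52.

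The 4 remaining genes behaved otherwise. *MES18* (AT5G58310), a member of the methylesterase family, fell from 8.46 ± 2.89 to 3.22 ± 1.302 FPKM in Col-0 and rose from 9.63 ± 1.12 to 28.3 ± 10.8 FPKM in *med14-2*, a difference of 2.80 ± 0.44 (adjusted p = 4.6e-04). *SCPL31* (AT1G11080), a serine carboxypeptidase-like gene, fell in Col-0 from 10.3 to 2.78 FPKM. In *med14-2* it was already at 3.03 FPKM at 20°C and at 2.17 FPKM at 27°C, and the difference of 1.35 ± 0.25 was lost with replicates 3 and 4 alone. The RING-finger gene AT1G24580 had a difference of 1.51 ± 0.55 (95% interval 0.33 to 2.69, adjusted p = 0.082), which did not pass. *HMR* (AT2G34640) had a difference of 0.19 ± 0.22 (95% interval -0.27 to 0.65, adjusted p = 0.64), while its level in *med14-2* was below that in Col-0, with a gap of -0.76 ± 0.15 at 20°C and -0.57 ± 0.15 at 27°C.

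**Figure D1:**
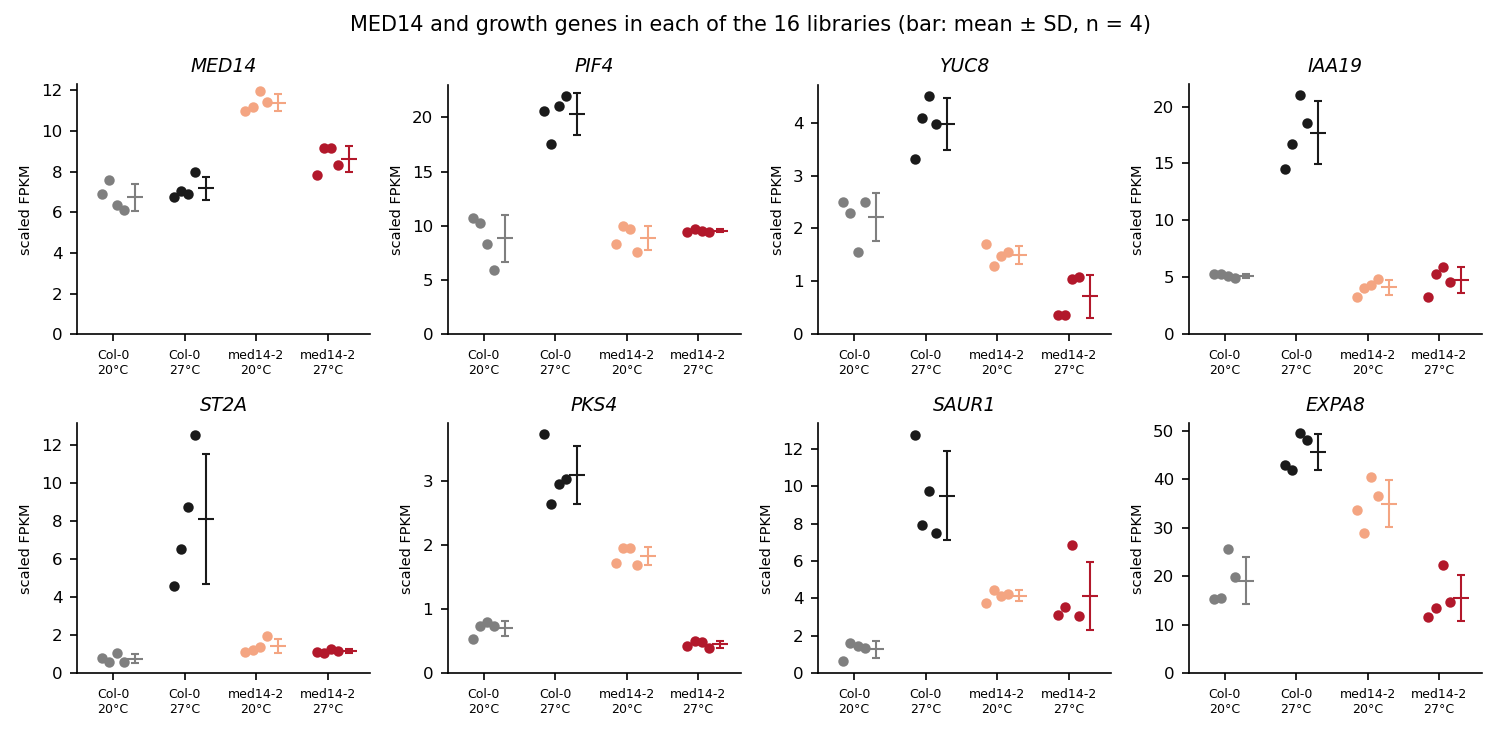
Scaled FPKM of growth-related genes in each of the 16 libraries, by genotype and temperature, with the group means. For *PIF4* the 4 warm Col-0 libraries stand above the other 12, and *IAA19* averages 17.7 FPKM in warm Col-0 against 4.76 FPKM in warm *med14-2*.

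Among regulators of light and shade growth, 11 of 17 tested genes had a lower response in *med14-2* and none a higher one, and the difference was negative for all 17 of them. Their median response was 1.02 in Col-0 and -0.03 in *med14-2*. The count was 8 to 12 with 1 library left out and 7 with all 32 libraries in the fit or with replicates 3 and 4 alone. *PKS4* (AT5G04190), a phytochrome kinase substrate protein of phototropic growth, had the smallest p in this list. It was at 0.533, 0.742, 0.801 and 0.736 FPKM in Col-0 at 20°C and 3.73, 2.65, 2.96 and 3.04 FPKM at 27°C, but at 1.73, 1.96, 1.95 and 1.69 FPKM in *med14-2* at 20°C and 0.422, 0.504, 0.487 and 0.395 FPKM at 27°C. The 2 genotypes moved in opposite directions with no overlap between temperatures in either one (difference -3.38 ± 0.20, adjusted p = 2.3e-08).

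*PIF5* (AT3G59060), the closest relative of *PIF4*, rose in Col-0 from 8.23 ± 1.21 to 25.7 ± 1.85 FPKM and was at 11.9 ± 0.584 and 12.5 ± 1.27 FPKM in *med14-2* (difference -1.56 ± 0.14, adjusted p = 1.5e-06). *PIF3* (AT1G09530) rose by 1.02 in Col-0 and fell by 0.77 on the log2 scale in *med14-2*. *PAR1* (AT2G42870), an atypical bHLH protein that inhibits PIFs, rose by 0.68 in Col-0 and fell from 3.06 to 0.464 FPKM in *med14-2* (difference -2.91 ± 0.34). *ATHB2* (AT4G16780) and *PIL1* (AT2G46970), the classical shade markers, had differences of -0.69 ± 0.29 and -0.89 ± 0.31 that did not pass (adjusted p = 0.12 and 0.065).

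Auxin synthesis was represented by 8 tested genes, of which *YUC8* and *YUC5* were lower. The call of *YUC5* (AT5G43890, difference -0.96 ± 0.31, adjusted p = 0.045) was lost in 14 of 16 fits that left out a library, where the difference ran from -1.11 to -0.74. *TAA1* (AT1G70560), the aminotransferase of the first step, had a difference of 0.04 ± 0.13 with a 95% interval of -0.22 to 0.31. Of 6 genes that conjugate or oxidise auxin, 3 were lower, *GH3.6* (-1.44 ± 0.14), *GH3.3* (-1.54 ± 0.20), and *GH3.5* (-1.15 ± 0.17), all of them auxin-induced conjugating enzymes.

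Of 25 Aux/IAA repressor genes, 14 were lower and none higher, with a median difference of -0.45 (11 to 13 lower with 1 library left out, 7 with all 32 libraries in the fit, 6 with replicates 3 and 4 alone). *IAA2* (AT3G23030) rose from 9.83 ± 1.09 to 33.5 ± 3.49 FPKM in Col-0 and was at 14.9 ± 0.878 and 16.7 ± 3.32 FPKM in *med14-2* (difference -1.60 ± 0.16, adjusted p = 4.6e-06). *IAA27* (AT4G29080) rose by 0.66 in Col-0 and fell by 0.79 on the log2 scale in *med14-2*. *IAA7* (AT3G23050), one of the most abundant members, was at 52.0 and 102 FPKM in Col-0 and 87.4 and 91.0 FPKM in *med14-2*, with a gap between genotypes of 0.75 ± 0.12 at 20°C and -0.17 ± 0.12 at 27°C.

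SAUR genes encode small auxin-induced proteins that promote cell expansion by holding clade D phosphatases in check. Of 40 tested, 20 had a lower response and none a higher one, and 38 had a negative difference. Their median response was 1.19 in Col-0 and -0.05 in *med14-2*. The count was 15 to 21 with 1 library left out, 22 with replicates 1 and 2 alone, 6 with replicates 3 and 4 alone, and 7 with all 32 libraries in the fit. *SAUR9* (AT4G36110) was at 0.412, 0.295, 0.228 and 0.757 FPKM in Col-0 at 20°C and 2.77, 2.36, 2.34 and 3.48 FPKM at 27°C, against 1.496, 1.77, 1.12 and 1.74 and 0.977, 0.686, 0.451 and 1.098 FPKM in *med14-2* (difference -2.98 ± 0.34, adjusted p = 1.1e-05). Cool *med14-2* seedlings thus had more of this transcript than cool Col-0 seedlings, by 1.45 ± 0.24. *SAUR1* (AT4G34770) was at 4.14 and 4.14 FPKM in *med14-2* while it rose from 1.28 to 9.48 FPKM in Col-0. *SAUR10* (AT2G18010), which passed the filter through warm Col-0 libraries alone, averaged 2.16 FPKM there and at most 0.273 FPKM in the other groups. *SAUR62* (AT1G29430) had a difference of -1.41 ± 0.24 that was not called with replicates 3 and 4 alone. Several SAUR genes are near-identical tandem copies, such as the *SAUR19* to *SAUR24* and *SAUR61* to *SAUR68* groups, and the split of reads within such a group is uncertain.

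The 2 letter patterns bound by PIFs were searched on both strands from 250 bases before to 50 bases after each gene start, 300 bases in the RefSeq TAIR10.1 reference. CACGTG, which reads the same on both strands, was in 8.86% of the windows of all tested genes, 10.3% of those with a lower response and 8.87% of those with a higher one. CACATG, or its complement CATGTG, was in 12.9% of all windows, in 303 of 1739 windows of the lower set and in 11.1% of the higher set. Among the SAUR genes 24 of 40 windows held CACATG. The G-box itself was in 1 of 40 SAUR windows and in 1 of 17 PIF and shade windows, that of *PIF5*. It was in 4 of 25 Aux/IAA windows, 3 of 17 brassinosteroid and PRE/BEE windows and 1 of 6 auxin conjugation and oxidation windows. No window of the auxin synthesis list held it, nor did any of the ethylene synthesis, alpha-expansin and XTH lists described below. CACATG was in 5 of 8 auxin synthesis, 3 of 6 auxin conjugation and oxidation, 6 of 25 Aux/IAA and 3 of 17 PIF and shade windows. It was also in 5 of 17 brassinosteroid and PRE/BEE, 2 of 11 ethylene synthesis, 4 of 11 alpha-expansin and 3 of 22 XTH windows. The windows shown are of genes named above and of *BEE1*, described next, 30 bases each on the gene's strand with the match in capitals. They lie at chr3:5263919-5263948 (+) for *IAA19*, chr3:21830985-21831014 (-) for *PIF5*, chr1:6331250-6331279 (+) for *BEE1*, chr4:17089725-17089754 (+) for *SAUR9*, and chr4:16591096-16591125 (+) for *SAUR1*. A match is a description of the letters and no evidence of binding.
IAA19: atcaaatgactcCACGTGtcgatattggat
PIF5: ttaactagtcaaCACGTGaaataaatgcga
BEE1: cgttcacttgccCACGTGgctctcccttta
SAUR9: aaggaaacacttCATGTGgttctgcatgaa
SAUR1: acaaggcataagCATGTGaacttcatccat

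Brassinosteroid and PRE/BEE genes, which act with PIFs and auxin in cell elongation, had 8 lower and 1 higher of 17 (4 lower with all 32 libraries in the fit or with replicates 3 and 4 alone). *BEE3* (AT1G73830), a growth-promoting bHLH factor, was at 2.502, 2.32, 3.95 and 3.26 FPKM in Col-0 at 20°C and 13.3, 12.2, 15.6 and 13.3 FPKM at 27°C, against 7.81, 7.19, 6.24 and 7.83 and 3.05, 3.79, 4.67 and 4.07 FPKM in *med14-2*. It rose in Col-0 and fell in *med14-2* with no overlap in either (difference -2.98 ± 0.21, adjusted p = 1.1e-07). *BEE1* (AT1G18400) rose by 1.93 in Col-0, and its response in *med14-2* was -0.01 (difference -1.93 ± 0.16). *BES1* (AT1G19350), a transcription factor of brassinosteroid signalling, and *PRE6* (AT1G26945) had differences of -1.12 ± 0.13 and -1.25 ± 0.20. The higher gene was *DWF4* (AT3G50660), an enzyme of brassinosteroid synthesis that the pathway represses, with a difference of 0.43 ± 0.13. Its call was lost in 5 of 16 fits that left out a library (0.36 to 0.48), without scaling, with library weights, with all 32 libraries, and with replicates 1 and 2 alone.

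Ethylene synthesis showed 6 lower genes of 11 and none higher, with a median response of 1.15 in Col-0 and 0.04 in *med14-2*. *ACS4* (AT2G22810), an ACC synthase induced by auxin, was at 2.27, 2.71, 1.85 and 2.75 FPKM in Col-0 at 20°C and 5.34, 4.94, 6.11 and 5.92 FPKM at 27°C, against 0.849, 0.914, 0.609 and 0.658 and 0.0529, 0.304, 0.419 and 0.297 FPKM in *med14-2* (difference -2.15 ± 0.29, adjusted p = 6.2e-05). *ACS11* (AT4G08040) and *ACO4* (AT1G05010) followed with -2.18 ± 0.32 and -1.23 ± 0.27.

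Of 11 alpha-expansin genes, whose products loosen cell walls, 4 were lower in every fit that left out a library and none was higher. *EXPA8* (AT2G40610) rose from 19.1 ± 4.83 to 45.6 ± 3.72 FPKM in Col-0 and fell from 34.9 ± 4.84 to 15.6 ± 4.70 FPKM in *med14-2* (difference -2.46 ± 0.25, adjusted p = 5.0e-06). *EXPA1* (AT1G69530) and *EXPA3* (AT2G37640) had the same signs at -1.36 ± 0.19 and -1.39 ± 0.21, whereas *EXPA11* (AT1G20190) fell in both genotypes and further in *med14-2* (-1.15 ± 0.19). *EXPA4* (AT2G39700) rose in both genotypes, by 1.196 in Col-0 and 1.48 in *med14-2* (difference 0.28 ± 0.15, 95% interval -0.03 to 0.60).

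XTH genes encode enzymes that cut and rejoin xyloglucan, and 7 of 22 were lower with 1 higher (5 to 10 lower with 1 library left out). *XTH22* (AT5G57560), also known as the touch-induced *TCH4*, rose in Col-0 from 1.12, 1.39, 1.42 and 1.70 FPKM at 20°C to 5.69, 5.62, 11.7 and 11.4 FPKM at 27°C. It was at 12.1, 9.88, 17.1 and 19.1 FPKM in cool *med14-2* and 6.12, 5.12, 12.03 and 5.77 FPKM in warm *med14-2*, so the gap lay at 20°C (3.12 ± 0.29) and not at 27°C (-0.23 ± 0.29). *XTH16* (AT3G23730), *XTH33* (AT1G10550), and *XTH24* (AT4G30270) had differences of -1.41, -1.82, and -1.80, and *XTH33* was not called with replicates 3 and 4 alone. *XTH31* (AT3G44990), the higher one, was at 165 and 95.6 FPKM in Col-0 but 25.7 and 25.2 FPKM in *med14-2*, and its call of 0.74 ± 0.17 was lost without scaling and with all 32 libraries.

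**Figure D2:**
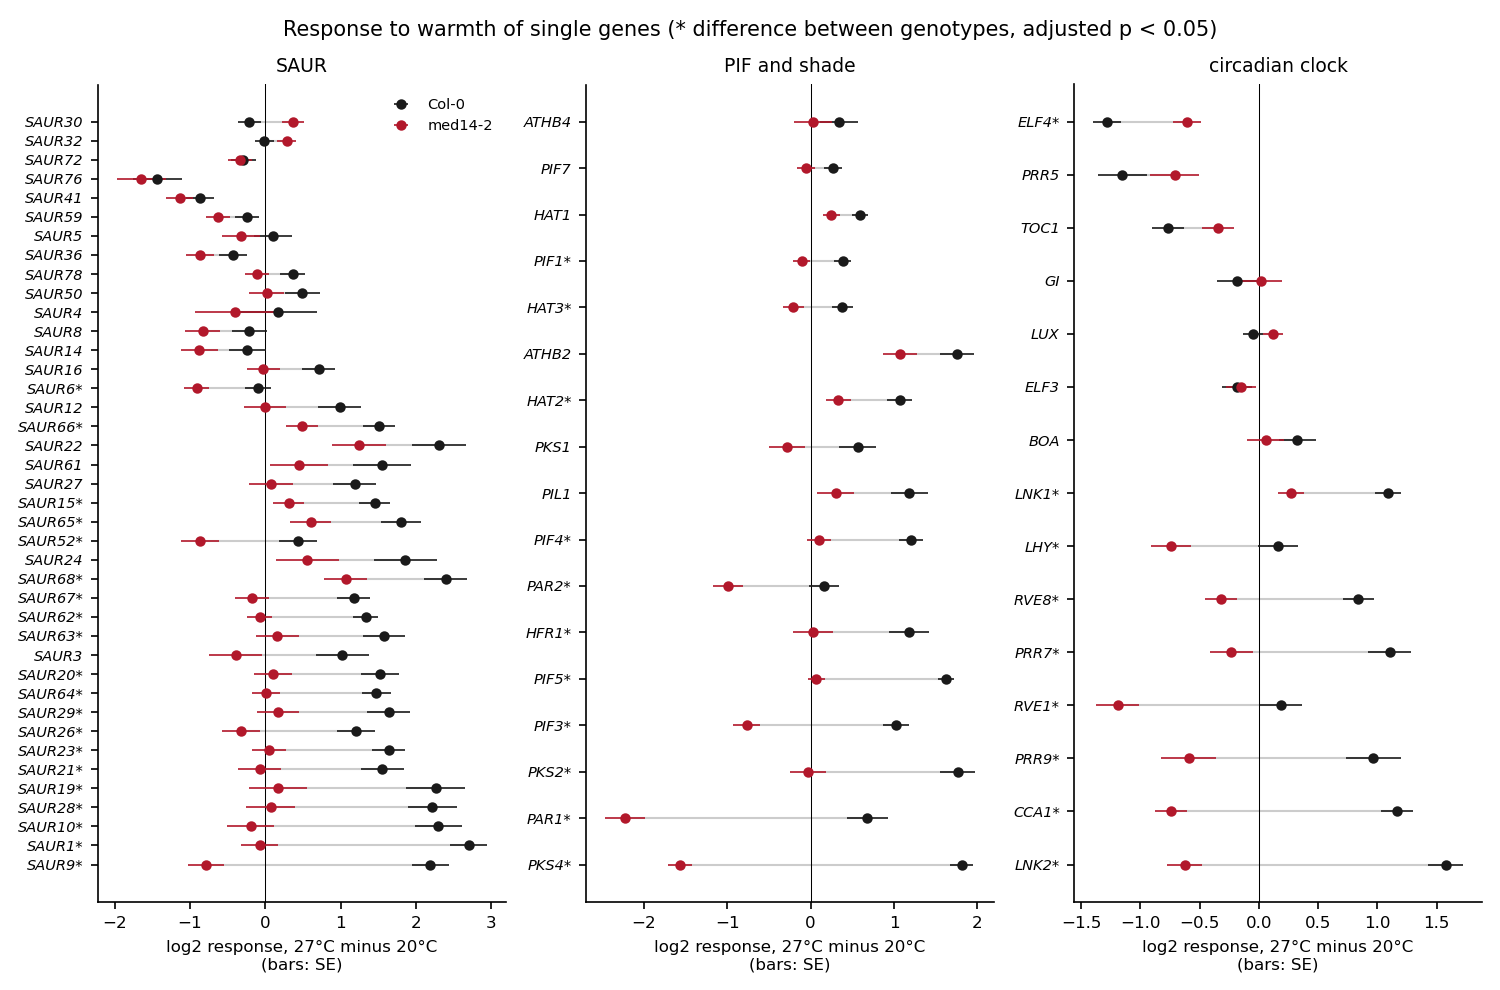
Response to warmth in Col-0 and in *med14-2* (log2 scale) for the members of the lists in which lower calls prevail, 1 point per gene and genotype. In the PIF and shade list the median falls from 1.02 in Col-0 to -0.03 in *med14-2*, and in the SAUR list from 1.19 to -0.05.

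Nuclear genes of the light-harvesting complexes encode the chlorophyll a/b binding proteins of photosystem II (LHCB) and photosystem I (LHCA). Of 18 such genes 17 had a lower response in *med14-2*, the exception being *LHCB4.3* (AT2G40100, 0.50 ± 0.28, adjusted p = 0.27). None of the 4 genes for the small subunit of Rubisco was called. The same count of 17 lower genes was found in every fit that left out a library and with replicates 1 and 2 or replicates 3 and 4 alone, where replicates 1 and 2 gave 1 higher call, *LHCB4.3*, as well. The median response over these 22 genes was 0.00 in Col-0 and -1.25 in *med14-2*, with a median gap of 0.46 at 20°C and -1.08 at 27°C. By these medians *med14-2* had more of the list's transcripts in cool seedlings and less in warm ones. This was not so for every member, as the values of *RBCS1A* below show. Summed over the 22 genes, the level was 65000 to 77600 FPKM in cool and 52700 to 65400 FPKM in warm Col-0, and 81800 to 95700 FPKM in cool and 34600 to 42100 FPKM in warm *med14-2*.

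*LHCB1.4* (AT2G34430) had the largest difference of them. It was at 987, 703, 981 and 513 FPKM in Col-0 at 20°C and 927, 790.4, 1229 and 1222 FPKM at 27°C. In *med14-2* it was at 2541, 1889.5, 3197 and 2938 FPKM at 20°C and 130.5, 117, 173 and 134 FPKM at 27°C, and warm *med14-2* libraries were far below every other library (difference -4.65 ± 0.30, adjusted p = 6.8e-08). *LHCB1.5* (AT2G34420) rose in Col-0 from 2184 ± 424 to 4299.8 ± 564 FPKM and fell in *med14-2* from 5526 ± 654 to 1593 ± 282 FPKM. *LHCB1.3* (AT1G29930), the most abundant of the family, fell in both genotypes, from 10420.0 to 7593 FPKM in Col-0 and from 16419 to 2630.1 FPKM in *med14-2*. *LHCB2.1* (AT2G05100) had a difference of -3.24 ± 0.29. The LHCB1, LHCB2, and RBCS genes are families of near-identical copies, so their reads may have been split unevenly among members.

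The LHCA genes differed less, with -1.68 ± 0.20 for *LHCA4* (AT3G47470), -1.40 ± 0.19 for *LHCA1* (AT3G54890), -1.0 ± 0.15 for *LHCA3* (AT1G61520) and -0.94 ± 0.16 for *LHCA2* (AT3G61470). The Rubisco gene *RBCS1A* (AT1G67090) fell in both genotypes, from 18737 ± 1080.2 to 11058 ± 852 FPKM in Col-0 and from 19905 ± 657 to 11038 ± 809 FPKM in *med14-2* (difference -0.09 ± 0.12, 95% interval -0.34 to 0.16). The other Rubisco genes had differences of -0.01, -0.05 and -0.17. Genes of the plastid genome itself had 0 calls among 83 tested by limma, 0 of them at an unadjusted p under 0.05, and a median difference of 0.05. The share of FPKM in plastid genes varied within the warm *med14-2* group from 0.143 to 3.98%, with replicates 3 and 4 at the low end. Its part in the light-harvesting result was not tested.

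The element GATAAG, or its complement CTTATC, known from promoters of light-harvesting genes as the I-box core, was in 14.9% of all windows, in 365 of 1739 windows of the lower set and in 13.3% of the higher set, and in 8 of 22 (36.4%) of this list. The windows of this list that held the element include those of *RBCS1B* and *RBCS2B*, Rubisco genes that were not called. Shown in the same way as above are *LHCB2.1*, at chr2:1824684-1824713 (-), and *LHCA1*, at chr3:20341324-20341353 (-), each with the match in capitals.
LHCB2.1: tttattatataaGATAAGattcacatattt
LHCA1: ttttaccggtttGATAAGtctccagtctta

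Some of the largest lower differences lay in genes whose highest level was in cool *med14-2* seedlings. *STR15* (AT4G35770), a sulfurtransferase gene also named *SEN1* and *DARK INDUCIBLE 1*, was at 2.03, 4.06, 1.90 and 0.933 FPKM in cool Col-0 and 3.97, 3.65, 9.78 and 9.08 FPKM in warm Col-0. In *med14-2* it was at 31.9, 21.1, 44.9 and 55.8 FPKM at 20°C and 3.75, 3.66, 4.01 and 4.16 FPKM at 27°C. The cool *med14-2* libraries were above all others, and the difference in response was -4.62 ± 0.56 (adjusted p = 6.2e-05). *CP1* (AT4G36880), a cysteine protease, was at 15.9 ± 3.71 FPKM in cool *med14-2* and between 1.09 and 1.78 FPKM in the means of the 3 other groups (difference -3.79 ± 0.42). *DRMH1* (AT2G33830), a dormancy-associated protein gene, was at 69.0 ± 17.1 FPKM in cool and 5.40 ± 1.44 FPKM in warm *med14-2*, against 16.4 ± 3.64 and 17.2 ± 6.05 FPKM in Col-0 (difference -3.64 ± 0.35). *GH9B15* (AT4G23560), an endoglucanase, was at 7.97 ± 1.61 FPKM in cool *med14-2* and 0.611 FPKM in cool Col-0, and was near 0 in warm seedlings of both.

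Other genes of this rank differed in warm seedlings as well. *AT14A* (AT3G28300) was at 10.2, 11.9, 12.1 and 13.4 and 7.04, 6.77, 9.25 and 7.07 FPKM in Col-0 and 6.81, 6.93, 6.01 and 5.61 FPKM in cool *med14-2*, but 0.0549, 0.140, 0.145 and 0.309 FPKM in warm *med14-2* (difference -3.38 ± 0.22, adjusted p = 5.6e-08). The neighbouring AT3G28290 is a near-identical copy, so the value may belong to both. *FAR1* (AT5G22500), a reductase that makes fatty alcohols of suberin, rose from 1.19 ± 0.373 to 23.4 ± 4.61 FPKM in Col-0 and from 3.21 ± 0.623 to 4.88 ± 1.23 FPKM in *med14-2* (difference -3.50 ± 0.30). *ORP4C* (AT5G57240), an oxysterol-binding protein homolog, rose by 2.54 in Col-0 and fell by 0.95 on the log2 scale in *med14-2*. *M17* (AT2G41260), a late embryogenesis abundant protein gene, was at 6.38, 4.11, 2.85 and 3.6 FPKM in warm Col-0 and 0.323, 0.412, 0 and 0.0504 FPKM in warm *med14-2* (difference -4.97 ± 1.102, adjusted p = 0.0064), with levels near 0 in cool Col-0 (0, 0, 0.283 and 0 FPKM) and a wide spread in cool *med14-2* (2.00, 4.46, 0 and 0 FPKM). *BCB* (AT5G20230), a blue copper-binding protein, had a difference of -3.48 ± 0.56 that was not called with replicates 3 and 4 alone.

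Clock genes were 8 lower and 1 higher of 15, with the same 8 and 1 counted in every fit that left out a library and 5 lower with all 32 libraries. The seedlings grew in constant light from the start, so these are levels at 1 time of harvest. *CCA1* (AT2G46830), a morning MYB factor of the core oscillator, was at 4.75, 4.51, 4.85 and 5.55 FPKM in Col-0 at 20°C and 14.5, 11.7, 10.6 and 9.11 FPKM at 27°C, against 13.7, 14.0, 19.5 and 17.0 and 8.53, 9.51, 8.68 and 10.97 FPKM in *med14-2*. It rose in Col-0 and fell in *med14-2* (difference -1.91 ± 0.19, adjusted p = 3.4e-06). *LNK2* (AT3G54500), a coactivator of the morning loop, had a difference of -2.20 ± 0.21, and its partner *LNK1* (AT5G64170) one of -0.82 ± 0.15. *RVE8* (AT3G09600), a MYB factor that works with the LNK proteins, had -1.16 ± 0.19. The lower calls included the morning genes *LHY* (-0.90), *RVE1* (-1.38), *PRR9* (-1.56), and *PRR7* (-1.34). The evening gene *ELF4* (AT2G40080), a part of the evening complex, was the higher one at 0.68 ± 0.17, a call lost without scaling and with replicates 3 and 4 alone. *TOC1*, *GI*, and *LUX*, which also act in the evening, had differences of 0.42 ± 0.19, 0.20 ± 0.24, and 0.17 ± 0.12 that did not pass.

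The G-box CACGTG was in 10 of 15 clock windows (66.7%), against 8.86% of all windows. Those of *CCA1*, at chr2:19245386-19245415 (+), and *PRR9*, at chr2:19232423-19232452 (+), are shown with the match in capitals. The evening element AAATATCT was in 40.0% of clock windows and 5.86% of all windows.
CCA1: tagtgtatcagaCACGTGtcgacaaactgg
PRR9: ttaggttaatgaCACGTGttaaggtggacc

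Genes of aliphatic glucosinolate synthesis turn methionine into sulfur-rich defence compounds of the cabbage order. Of 21 tested, 19 had a higher response in *med14-2* and none a lower one (18 to 20 with 1 library left out, 20 with replicates 1 and 2 alone, 18 with replicates 3 and 4 alone). The median response was 0.25 in Col-0 and 2.14 in *med14-2*. The gap lay in cool seedlings, with a median of -2.25 at 20°C and -0.41 at 27°C. Summed over the list, the level was 838 to 958 FPKM in cool and 840 to 1230 FPKM in warm Col-0, against 268 to 348 FPKM in cool and 698 to 895 FPKM in warm *med14-2*, and the cool *med14-2* libraries were below all others.

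*CYP79F1* (AT1G16410), the cytochrome P450 that makes aldoximes from elongated methionine, had the largest difference with a higher response of all genes named by rule. It was at 12.9, 16.3, 15.9 and 14.2 FPKM in Col-0 at 20°C and 24.2, 30.9, 17.2 and 18.9 FPKM at 27°C. It was at 0.0819, 0.339, 0.3 and 0.872 FPKM in *med14-2* at 20°C and 20.1, 23.1, 12.4 and 15.8 FPKM at 27°C, so the cool *med14-2* libraries were below all others and the warm ones overlapped with Col-0 (difference 4.32 ± 0.41, adjusted p = 3.6e-06, gap at 27°C -0.35 ± 0.29). *MAM1* (AT5G23010), which elongates the methionine chain, was at 42.5 ± 4.09 and 51.6 ± 13.3 FPKM in Col-0 and at 2.99 ± 1.63 and 25.9 ± 9.42 FPKM in *med14-2* (difference 2.82 ± 0.45). *IPMI2* (AT2G43100) and *IMD1* (AT5G14200), the isomerase and dehydrogenase of the same chain cycle, had 2.58 ± 0.26 and 1.95 ± 0.22. *SOT18* (AT1G74090), a sulfotransferase of the last core step, had 1.27 ± 0.14.

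*MYB29* (AT5G07690) was at 2.86, 4.11, 3.78 and 3.78 FPKM in cool and 8.83, 9.35, 3.85 and 4.91 FPKM in warm Col-0, and 0.271, 0.642, 0.262 and 0.424 FPKM in cool and 3.98, 4.197, 1.68 and 2.45 FPKM in warm *med14-2*. It rose in both genotypes and further in *med14-2* (difference 1.55 ± 0.41, adjusted p = 0.016). *MYB28* (AT5G61420), the main activator of aliphatic synthesis, had a difference of 0.26 ± 0.19 (adjusted p = 0.41, 95% interval -0.13 to 0.65) and was lower in *med14-2* at both temperatures, with gaps of -0.96 ± 0.13 at 20°C and -0.71 ± 0.13 at 27°C. *MAM3* (AT5G23020) was the other member not called (0.76 ± 0.27, adjusted p = 0.064). *CYP83A1* (AT4G13770), the P450 after CYP79F1, had 2.24 ± 0.26. The window below, at chr4:7992455-7992484 (-), holds its G-box in capitals, and 4 of 21 windows of the list (19.0%) held one.
CYP83A1: tattaattctaaCACGTGaggtttcgtaag

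Indole glucosinolate synthesis, which starts from tryptophan, had 4 higher and 1 lower of 11. The higher genes were *UGT74B1* (0.97 ± 0.15), *SUR1* (0.82 ± 0.16), *CYP83B1* (0.48 ± 0.12), and *CYP79B2* (0.44 ± 0.14), and the call of *CYP79B2* was lost in 7 of 16 fits that left out a library (0.37 to 0.50). *UGT74B1* and *SUR1* also serve the aliphatic branch. The activator *MYB51* (AT1G18570) went the other way, from 1.56 ± 0.444 to 5.59 ± 0.416 FPKM in Col-0 and from 3.04 ± 0.623 to 3.09 ± 0.702 FPKM in *med14-2* (difference -1.70 ± 0.26, adjusted p = 2.1e-04). Without scaling or with all 32 libraries 1 gene of the list was higher.

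Genes of glucosinolate breakdown were split, with 4 lower and 2 higher of 8. *TGG2* (AT5G25980), a myrosinase that cleaves glucosinolates, rose from 27.2 ± 2.49 to 74.1 ± 9.11 FPKM in Col-0 and was at 17.3 ± 1.33 and 19.8 ± 4.76 FPKM in *med14-2* (difference -1.27 ± 0.20). *ESM1* (AT3G14210), an epithiospecifier modifier, fell in both genotypes, from 129.9 to 71.5 FPKM in Col-0 and from 61.7 to 10.4 FPKM in *med14-2* (-1.70 ± 0.17). The nitrile specifiers *NSP1* (AT3G16400) and *NSP5* (AT5G48180) were lower, with differences of -1.095 and -0.43, and *NSP3* (AT3G16390) was higher at 2.33 ± 0.28. The calls of *NSP5* and of *ESP* (AT1G54040, 0.83 ± 0.26) were lost in 6 of 16 and 9 of 16 fits that left out a library, where the differences ran from -0.48 to -0.37 and from 0.67 to 0.96.

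**Figure D3:**
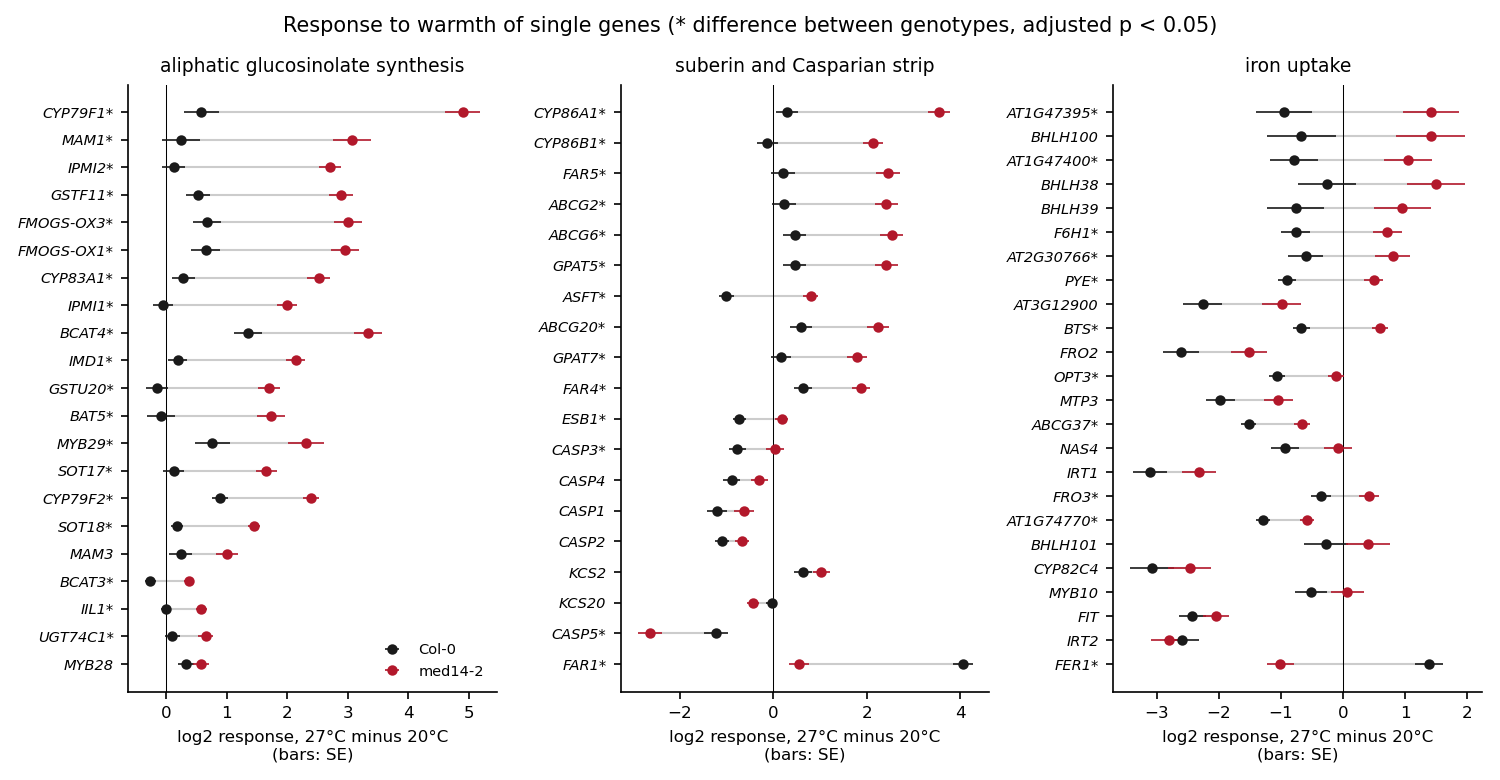
Response to warmth in Col-0 and in *med14-2* (log2 scale) for the members of the lists in which higher calls prevail, 1 point per gene and genotype. For aliphatic glucosinolate synthesis the median is 0.25 in Col-0 and 2.14 in *med14-2*, and for suberin and the Casparian strip 0.16 and 1.03.

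Suberin and Casparian strip genes, which build the barriers of the root endodermis, had 12 higher and 2 lower of 19 (10 to 12 higher with 1 library left out). By the median of the list the gap lay in warm seedlings, with 0.04 at 20°C and 1.31 at 27°C. The summed level, given below, was above that of Col-0 at both temperatures. *CYP86A1* (AT5G58860), the fatty acid hydroxylase of root suberin, was at 2.24, 2.28, 2.19 and 2.52 and 2.09, 2.09, 4.195 and 3.67 FPKM in Col-0. It was at 1.65, 2.09, 1.54 and 1.36 FPKM in cool *med14-2* and 16.5, 17.0, 36.3 and 22.5 FPKM in warm *med14-2*, where all 4 libraries were above the other 12 (difference 3.26 ± 0.33, adjusted p = 4.6e-06). *ASFT* (AT5G41040), which adds ferulate to suberin, fell in Col-0 from 18.8 ± 1.53 to 9.43 ± 2.45 FPKM and rose in *med14-2* from 14.6 ± 1.04 to 25.9 ± 5.28 FPKM (1.80 ± 0.22). *CYP86B1* (AT5G23190) and *FAR5* (AT3G44550), of the same pathway, had 2.26 ± 0.31 and 2.25 ± 0.36.

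*CASP1* (AT2G36100), which encodes a Casparian strip membrane protein, was at 37.2 ± 4.48 and 16.6 ± 5.61 FPKM in Col-0 and 54.1 ± 7.16 and 35.9 ± 10.5 FPKM in *med14-2* (0.59 ± 0.31, adjusted p = 0.23), and its relatives *CASP2* and *CASP4* were not called either (0.43 ± 0.20 and 0.59 ± 0.26). The lower genes were *CASP5* (AT5G15290, -1.42 ± 0.37), whose call was lost with replicates 3 and 4 alone, and *FAR1*, described above. These genes are made in a few root cell types, and summed over the 19 genes the level was 170 to 205 FPKM in cool and 127 to 195 FPKM in warm Col-0, and 221 to 258 FPKM in cool and 212 to 317 FPKM in warm *med14-2*. The share of root tissue in the seedlings was not measured, and its part in these differences was not tested.

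Root hair genes, another group of root cells, had 7 higher and 0 lower of 19, with a median response of -1.91 in Col-0 and -1.01 in *med14-2*. Their summed level was 168 to 180 FPKM in cool and 32.2 to 57.8 FPKM in warm Col-0, and 128 to 153 FPKM in cool and 47.6 to 84.2 FPKM in warm *med14-2*. The count was not stable, from 2 to 9 with 1 library left out, 14 with replicates 1 and 2 alone, 1 with replicates 3 and 4 alone, and 2 with all 32 libraries. *RHD2* (AT5G51060), the NADPH oxidase of root hair growth, was at 5.58, 6.65, 5.68 and 5.93 and 1.47, 1.69, 2.15 and 2.08 FPKM in Col-0 and 4.95, 5.72, 4.48 and 4.26 and 4.55, 4.56, 5.12 and 3.84 FPKM in *med14-2*, and its call (1.48 ± 0.18, adjusted p = 2.2e-05) held in every fit. The bHLH factor *RHD6* (AT1G66470) had 1.43 ± 0.27, a call lost with all 32 libraries and with replicates 3 and 4 alone. The calls of *RHS12* (1.12 ± 0.33) and *RSL2* (1.26 ± 0.38) were lost in 5 of 16 and 6 of 16 fits that left out a library (0.95 to 1.34 and 1.03 to 1.44).

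Iron uptake and homeostasis genes had 10 higher and 1 lower of 24 (7 to 12 higher with 1 library left out, 3 without scaling, 17 with replicates 1 and 2 alone). *BTS* (AT3G18290), an E3 ligase that marks iron deficiency, was at 38.9, 46.7, 50.6 and 47.9 and 32.5, 29.7, 26.0 and 26.8 FPKM in Col-0 and 32.2, 33.2, 50.2 and 41.3 and 62.2, 67.1, 49.3 and 56.6 FPKM in *med14-2*, falling with warmth in Col-0 and rising in *med14-2* (1.27 ± 0.19, adjusted p = 1.7e-04). *PYE* (AT3G47640), a bHLH factor of the same response, had 1.396 ± 0.21. The transporter genes *OPT3* (AT4G16370) and *ABCG37* (AT3G53480) had 0.95 ± 0.18 and 0.86 ± 0.18, and both calls were lost without scaling, that of *ABCG37* also with replicates 3 and 4 alone. *FER1* (AT5G01600), an iron-storage ferritin that rises when iron is plentiful, was the lower gene. It rose from 45.7 ± 10.9 to 118 ± 15.8 FPKM in Col-0 and fell from 63.1 ± 19.9 to 30.7 ± 7.17 FPKM in *med14-2* (-2.397 ± 0.32, adjusted p = 7.4e-05). The root uptake genes *IRT1* (AT4G19690) and *FRO2* (AT1G01580) fell with warmth in both genotypes, and their differences of 0.80 ± 0.39 and 1.095 ± 0.42 did not pass (adjusted p = 0.20 and 0.096).

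The other genes with the largest higher differences were mostly high in warm *med14-2* libraries. *UMAMIT14* (AT2G39510), an amino acid exporter, was the exception. It fell from 3.05, 3.52, 3.22 and 2.76 to 1.66, 1.76, 0.761 and 0.617 FPKM in Col-0 and rose from 0.210, 0.447, 0.0945 and 0.204 to 2.47, 1.98, 2.73 and 4.02 FPKM in *med14-2*, which reversed the order of the genotypes (difference 3.97 ± 0.38, adjusted p = 2.4e-06). *NRT2.1* (AT1G08090), a high-affinity nitrate transporter, was at 1.91, 3.06, 1.88 and 1.69 and 0.873, 1.08, 0.659 and 0.467 FPKM in Col-0 and 0.508, 1.13, 1.36 and 1.89 and 2.48, 3.08, 10.4 and 5.89 FPKM in *med14-2* (3.07 ± 0.53). *LAC5* (AT2G40370), a laccase, rose by 0.71 in Col-0 and 3.67 in *med14-2*, and *PER11* (AT1G68850), a class III peroxidase, by 1.101 and 3.67. *GLP9* (AT4G14630), a germin-like protein, fell by 1.31 on the log2 scale in Col-0 and rose by 1.90 in *med14-2*. *MSRB8* (AT4G21840), a methionine sulfoxide reductase, passed the filter through warm *med14-2* libraries alone, with 2.15 ± 0.621 FPKM there and below 0.5 FPKM in the means of the other groups. *LTP8* (AT2G18370), a lipid transfer protein, had 2.87 ± 0.61, a call lost with voom on recovered fragments.

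The median response of heat shock genes, which encode chaperones and their regulators, was 1.096 in Col-0 and 0.54 in *med14-2*, with a median difference of -0.23, and 2 of 25 (8.0%) were lower with none higher, a share below the 8.89% of all genes. *HSP70* (AT3G12580), a cytosolic chaperone, rose in both genotypes, from 8.05, 9.08, 8.18 and 8.90 to 70.1, 52.5, 139.5 and 59.8 FPKM in Col-0 and from 12.4, 14.5, 17.7 and 29.3 to 93.9, 87.0, 139 and 109.6 FPKM in *med14-2* (difference -0.51 ± 0.39, 95% interval -1.34 to 0.32). *HSP101* (AT1G74310), the disaggregase, rose by 0.95 and 0.95 (difference 0.00 ± 0.17, 95% interval -0.36 to 0.37). The lower genes were *HSFA7A* (AT3G51910, -1.17 ± 0.29), a heat shock factor, and the small heat shock protein gene *HSP18.2* (AT5G59720, -1.41 ± 0.36), whose call was lost with voom on recovered fragments.

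Cold-regulated genes had 3 higher of 14 and none lower. *KIN1* (AT5G15960) was at 3.18, 2.34, 2.07 and 2.75 and 0.0654, 0.217, 0.279 and 0.313 FPKM in Col-0 and 0, 0.287, 0.182 and 0 and 0, 0.0707, 0.0730 and 0 FPKM in *med14-2*. It passed the filter through the cool Col-0 libraries alone and was near the limit of detection in *med14-2*. *ERD10* (AT1G20450), a dehydrin, and *RD29A* (AT5G52310) had 0.93 ± 0.15 and 0.89 ± 0.26, both far lower in *med14-2* at 20°C (-1.73 ± 0.11 and -2.25 ± 0.18). These gaps were larger than the differences in response, so both genes stayed lower in *med14-2* at 27°C. The median gap of the list was -0.42 at 20°C and -0.71 at 27°C. The call of *RD29A* was lost without scaling, with all 32 libraries, and without Col-0 replicate 2 at 27°C or *med14-2* replicate 3 at 20°C, with differences of 0.76 to 1.08 over the fits that left out a library.

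Jasmonate genes had 5 higher and 3 lower of 16, with 1 higher without scaling or with replicates 3 and 4 alone and 2 higher with all 32 libraries. The synthesis genes *AOS* (0.97 ± 0.18), *LOX2* (1.22 ± 0.31), *LOX3* (0.78 ± 0.20), *AOC3* (0.69 ± 0.21), and *OPR3* (0.42 ± 0.13) were higher, and the last 2 calls were lost in 9 of 16 and 13 of 16 fits that left out a library (0.56 to 0.80 and 0.37 to 0.52). The calls of *AOS*, *LOX3*, *AOC3*, and *OPR3* were lost without scaling and with replicates 3 and 4 alone. *AOC1* (AT3G25760), an isoform of the same cyclase family as *AOC3*, was lower (-0.96 ± 0.21), as were the response gene *VSP2* (AT5G24770, -1.30 ± 0.24) and *ST2A*, and the call of *VSP2* was lost with all 32 libraries and with replicates 3 and 4 alone. Salicylic acid and defence genes had 2 lower and 3 higher of 13. *ICS1* (AT1G74710), which makes the precursor of salicylic acid, was lower (-0.58 ± 0.15), a call lost without scaling, with all 32 libraries, and with replicates 1 and 2 or replicates 3 and 4 alone, and *WRKY18* lower at -0.74 ± 0.22. *FMO1* (1.17 ± 0.35), *PBS3* (1.11 ± 0.35), and *EDS5* (0.55 ± 0.18) were higher, of which *PBS3* passed the filter through warm *med14-2* libraries alone. With replicates 3 and 4 alone no gene of this list was called. The calls of *WRKY18*, *FMO1*, *PBS3*, and *EDS5* were lost in 6 of 16, 6 of 16, 8 of 12, and 9 of 16 fits that left out a library, with differences of -0.86 to -0.64, 0.92 to 1.41, 0.90 to 1.29, and 0.46 to 0.62.

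Phenylpropanoid and flavonoid genes had 3 higher and 1 lower of 18, with a median response of -1.298 in Col-0 and -0.94 in *med14-2*. *CHS* (AT5G13930), the first enzyme of flavonoid synthesis, fell from 295 ± 57.8 to 82.7 ± 9.56 FPKM in Col-0 and from 210.0 ± 25.1 to 51.0 ± 14.0 FPKM in *med14-2* (difference -0.25 ± 0.24, 95% interval -0.77 to 0.26). *FLS1* (AT5G08640), flavonol synthase, was lower (-0.86 ± 0.19), a call lost with all 32 libraries and with replicates 3 and 4 alone. The higher genes were *F3PH* (AT5G07990, 1.41 ± 0.33), a flavonoid hydroxylase, *C4H* (AT2G30490, 0.52 ± 0.15), and *4CL1* (AT1G51680, 0.41 ± 0.13), and the calls of *C4H* and *4CL1* were lost in 3 of 16 and 11 of 16 fits that left out a library (0.43 to 0.61 and 0.34 to 0.49). No gene of this list was called with all 32 libraries.

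Of 25 Mediator subunits tested, 2 (8.0%) were lower, *MED10B* (AT1G26665) and *MED14*, and none was higher. The share of lower genes was below the 8.89% of all genes, and the median difference was -0.10. *MED10B* was at 13.7, 12.3, 11.9 and 11.9 and 14.5, 15.1, 17.1 and 17.0 FPKM in Col-0 and 17.76, 16.4, 19.4 and 19.8 and 12.4, 14.0, 16.9 and 14.9 FPKM in *med14-2* (-0.68 ± 0.14, adjusted p = 0.0022). The tail subunits *MED16* (AT4G04920) and *MED25* (AT1G25540) had 0.10 ± 0.17 and 0.04 ± 0.18, with 95% intervals of -0.26 to 0.45 and -0.34 to 0.41. Of the seed storage and oil body genes, 2 of 10 passed the filter and neither was called, and their summed level was 0.335 to 5.31 FPKM over the 16 libraries. Mitochondrial genes had 2 higher calls among 56 tested and a median difference of 1.001, in libraries where the mitochondrial share of FPKM was at most 0.139%.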

How the data were processed

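RNA from whole seedlings was sequenced with a stranded mRNA kit. The authors aligned read pairs to TAIR10 in CLC Genomics Workbench, using the strand, and deposited FPKM for every gene in each library, which are normalized to gene length and mapped fragments. All 32 columns matched a sample, and 0 per-sample columns were left out. The depth was recovered from the deposited FPKM with exon lengths of the RefSeq TAIR10.1 annotation, which brought 99.22 to 99.28% of values up to 1000 fragments within 0.05 of a whole number.

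The 16 libraries of Col-0 and *med14-2* were fitted alone. The filter kept genes that reached 0.5 FPKM in 4 or more of them. Values were divided by unweighted TMM factors (30% of M and 5% of A values trimmed from each end), taken as log2(value + 0.25), and tested with limma (empirical Bayes with trend, robust), with Benjamini-Hochberg adjustment over all genes. The script was tested on simulated data. The unit is FPKM, so no count test was the main one. The study calls the replicates biological, and the labels do not say whether they came from separate plates or days.

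Members, lists, and tests were chosen with earlier results of these data known. Genes were named by rule: the 12 RT-qPCR genes, the 12 largest differences in each direction among called nuclear genes with a symbol and a group mean over 1 FPKM, and up to 4 called members of each list per direction, or all where at most 5 were called. List members may also be named where their list is described. Some genes that the rule names are not reported here. Genes outside the rule that are named in the closing section were chosen after their values were seen. Replicates with the same number had every correlation of deviations over 0.1 in 2 of 6 group pairs and were treated as unpaired. Alternatives were other scalings, pseudocounts of 0.1 and 1, other filters, a replicate block, a fit of all 32 libraries, library weights, no variance trend, voom on recovered fragments, stricter thresholds, and each library left out. Fits of replicates 1 and 2 alone and of replicates 3 and 4 alone were chosen after seeing the data. limma 3.58.1 and statmod 1.5.0 ran in R 4.3.3, and other steps in Python 3.11.15.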

Additional observations from a re-analysis of the deposited data

Results flagged for a closer look

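The difference between the 2 genotypes' responses, tested as an interaction, was past the threshold for 1739 lower and 1254 higher genes, described above.

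Of 152 groups of 4 libraries checked for 35 genes of the main rule, the depth, and the nuclear and plastid shares, 11 held a library far from the other 3, where chance gives about 1 in 20. In warm *med14-2*, replicate 1 had 55.95% of its fragments in nuclear genes. Replicate 3 of the same group stood apart for *HMR* (18.33 FPKM), *GH9B15* (0.02987 FPKM), and *XTH22* (12.03 FPKM). In warm Col-0, replicate 3 stood apart for *BCB* (7.532 FPKM), *AT14A* (9.25 FPKM), and *GH9B15* (0 FPKM), replicate 2 for *CP1* (2.49 FPKM), and replicate 4 for *MSRB8* (0 FPKM). In cool Col-0, replicate 3 stood apart for *M17* (0.283 FPKM) and replicate 2 for *NRT2.1* (3.061 FPKM). Except for *HMR*, which was not called, and *MSRB8*, which was below the filter without any 1 of the warm *med14-2* libraries, each of these genes was called in every fit that left out a library.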

How the results depend on the processing

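The counts of 1739 lower and 1254 higher genes became 1374 to 1992 and 1020 to 1328 with 1 library left out. Without *med14-2* replicate 1 at 27°C, the library with the low nuclear share, they were 1471 and 1109. They fell to 860 and 407 with all 32 libraries in the fit, where the spread, the filter (19937 genes), and the scaling came from all the groups. The part of each of these in the fall was not tested. The higher count fell to 380 without scaling. Library weights gave 2472 and 1917. An adjusted p under 0.01 gave 1033 and 593, and a difference of at least 1 on the log2 scale 795 and 474. Replicates 3 and 4 alone gave 892 and 429, and replicates 1 and 2 alone 2070 and 1841, both on fewer libraries and chosen after seeing the data. The cause of the gap between these fits was not tested. The median SD of log2 values was 0.21 in warm *med14-2* and 0.15 to 0.18 in the other groups. With the replicate number as a block, 2210 genes were lower and 1661 higher, and in the lists iron uptake moved from 10 to 16 higher, heat shock from 2 to 4 lower, indole glucosinolate synthesis from 1 to 2 lower, and glucosinolate breakdown from 2 to 1 higher. Deviations from the group mean correlated at a mean r of 0.17 for replicates with the same number. The mean of -0.06 for other numbers is no separate yardstick, because the deviations within a group cancel out. Every same-number correlation was over 0.1 in only 2 of 6 group pairs, so the numbers were not taken as pairs. That rule does not see a split of replicates 1 and 2 from 3 and 4. Cool *med14-2* replicate 2 had r of 0.40 with warm *med14-2* replicate 1 and -0.40 with replicate 3. Warm Col-0 replicate 3 had r of 0.54 with warm *med14-2* replicate 3 and -0.43 with replicate 1. Between cool and warm Col-0, same numbers gave only 0.05, 0.14, 0.05 and -0.05. The part of such a split in the counts was not tested.

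Of 2993 calls, 2788 to 2982 were kept under the other scalings, 1652 without scaling, and 1246 with all 32 libraries, and 3 changed sign under quantile normalization. None of the 122 genes named by rule changed sign while called. Of the 120 that were called, 101 were called without each library in turn, 16 lost the call at least once, and 4 (*MSRB8*, *SAUR10*, *KIN1*, and *PBS3*) were below the filter in some of these fits. Under the other alternatives planned or added, 76 were called in each, 38 lost the call at least once, and 10 were below the filter in some. Depth was at least 11911240 fragments, so precision for genes near 0.5 FPKM is the lowest.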

Other observations

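Gene families outside the lists were looked at after the values of all genes had been seen, so their counts are descriptions with no test of the family, to be read against 8.89% lower and 6.41% higher over all genes. Apart from the dark-inducible genes, families were taken by gene symbol, so members under other symbols are not counted. All 12 nuclear *PSA* genes, which encode subunits of photosystem I, had a lower response in *med14-2*, with a median response of -0.06 in Col-0 and -0.88 in *med14-2*. *GLK2* (AT5G44190), a transcription factor that activates such genes, was at 27.8, 24.7, 36.8 and 31.9 FPKM in cool and 52.5, 45.1, 58.8 and 52.8 FPKM in warm Col-0, and at 39.6, 40.0, 54.0 and 55.1 FPKM in cool and 21.8, 22.8, 34.9 and 32.4 FPKM in warm *med14-2* (-1.55 ± 0.23, adjusted p = 1.6e-04 by limma). Its paralog *GLK1* (AT2G20570) had a difference of 0.01 ± 0.15 (95% interval -0.30 to 0.32). Of 11 tested B-box genes with a *BBX* symbol, which encode light-signalling zinc finger proteins, 7 were lower and 0 higher. *BBX28* (AT4G27310) rose from 4.34 ± 1.16 to 11.6 ± 1.27 FPKM in Col-0 and fell from 10.2 ± 2.30 to 3.88 ± 1.44 FPKM in *med14-2*, and *BBX27* (AT1G68190) had a difference of -2.09 ± 0.22.

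Of 8 genes that the reference names dark inducible, 6 were lower and 0 higher, with a median response of 0.27 in Col-0 and -0.98 in *med14-2*. Besides *STR15*, *ASN1* (AT3G47340), an asparagine synthetase that rises when sugar is short, was at 4.68, 6.12, 3.67 and 3.06 and 1.68, 1.51, 3.02 and 1.74 FPKM in Col-0 and at 30.4, 23.7, 46.9 and 48.4 FPKM in cool and 2.81, 2.65, 2.29 and 2.46 FPKM in warm *med14-2* (-2.63 ± 0.34, adjusted p = 4.2e-05). The cool *med14-2* libraries were above all others. *RFS6* (AT5G20250, -2.06 ± 0.22), *DIN4* (AT3G13450, -0.66 ± 0.14), and the dormancy-associated *DRM1* (AT1G28330, -1.95 ± 0.23) were lower as well.

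Of 45 *ERF* genes, 11 were lower and 0 higher, and of 6 *PIN* auxin efflux carriers, 3 were lower. Both nitrate reductase genes (*NIA*) and 3 of 8 *GASA* genes were lower. Class III peroxidases (*PER*) went both ways, with 11 lower and 13 higher of 59, as did *UMAMIT* transporters, with 4 lower and 5 higher of 32. Of 9 *CESA* cellulose synthase genes, 3 were higher.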
